A study of Homo sapiens with 3 samples.

Results

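LKB1, encoded by STK11, and the AMP-activated protein kinase AMPK form the cellular sensor of low energy. The genes described here are the 10 symbols STK11, STRADA, STRADB, CAB39, PRKAA1, PRKAA2, PRKAB1, PRKAB2, PRKAG1 and PRKAG2, taken by name from the deposited gene lists. All 10 of 10 were listed in each of the 3 libraries, among 18856 genes listed in at least 1 library. The libraries were HBE LIEA, A549 LIEA and HBE Smart-seq2, each made from 10 pg of polyA+ mRNA with 18 cycles of PCR. HBE is a human bronchial epithelial cell line, and A549 is a lung adenocarcinoma cell line that carries a truncating mutation of STK11. No treatment, time course or genotype other than that of the lines was given for any group, and the labels do not say which HBE line was used. LIEA ligates adapters to fragmented mRNA and was read on an Ion Torrent sequencer, while Smart-seq2 copies mRNA from the polyA tail, amplifies the cDNA and was read on an Illumina sequencer. There was 1 library per group, so no p-value is given, the intervals cover counting error only, and chance differences between single libraries cannot be separated from those between lines or methods.

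LKB1 is a serine/threonine kinase and a tumour suppressor that is often lost in lung adenocarcinoma. It becomes active when it binds the pseudokinase STRAD (STRADA or STRADB) and the scaffold protein MO25 (CAB39 or CAB39L). LKB1 then phosphorylates AMPK and a set of related kinases. AMPK is a trimer of a catalytic alpha subunit (PRKAA1 or PRKAA2), a beta subunit that holds the complex together and binds glycogen (PRKAB1 or PRKAB2), and a gamma subunit that senses AMP and ATP (PRKAG1, PRKAG2 or PRKAG3). Active AMPK restrains lipid synthesis and mTORC1 and favours energy-yielding pathways.

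The comparisons turned on a difference between the methods that was largest for STK11, so the ends of 3 coding sequences are shown, with the stop codon in capitals. STK11 had the highest GC content of the 10 transcripts, PRKAA1 had 36.9% GC and a log2 ratio between the methods (LIEA over Smart-seq2) of -0.60, and PRKAB2 had a ratio of 1.42 at a GC content of 41.2%. The sequences are from the GENCODE transcripts nearest in length on GRCh37, the build named hg19 in the submitters' processing notes. The STK11 stretch lies on the plus strand at chr19:1226527-1226646, the PRKAA1 stretch on the minus strand at chr5:40762880-40762999, and the PRKAB2 stretch on the minus strand at chr1:146631144-146633332, where it is joined across an intron.
STK11: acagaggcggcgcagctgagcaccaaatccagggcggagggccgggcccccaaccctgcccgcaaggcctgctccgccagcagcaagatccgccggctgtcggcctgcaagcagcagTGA
PRKAA1: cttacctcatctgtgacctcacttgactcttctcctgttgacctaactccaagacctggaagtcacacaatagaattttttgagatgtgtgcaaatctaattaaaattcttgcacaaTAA
PRKAB2: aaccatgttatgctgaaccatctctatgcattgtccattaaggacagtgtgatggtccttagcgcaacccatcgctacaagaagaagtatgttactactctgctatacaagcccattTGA
The GC content of these 120 bases was 70.8% for STK11, 37.5% for PRKAA1 and 42.5% for PRKAB2. In the first 120 coding bases it was 64.2, 59.2 and 70.0% in the same order, with PRKAB2 the highest. Over the whole coding sequence it was 61.4, 41.6 and 50.5%, so the ends do not stand for the rest.

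The deposited values gave back a total of 4605855 mapped reads (HBE LIEA), 4154060 (A549 LIEA) and 9845150 (HBE Smart-seq2). Levels are given as rpkM, reads scaled to transcript length and to the library total, which allows genes of different length to be compared. With at least 10 reads as the criterion, these libraries quantified 12286, 12529 and 12881 genes. The markers followed the labels in the main. All 5 basal bronchial markers had at least 10 reads in both HBE libraries, and 4 of the 5 did in A549 LIEA. Their summed rpkM was 1722 in HBE LIEA, 6144 in HBE Smart-seq2 and 12.9 in A549 LIEA. The basal keratin KRT5 was at 552 and 407 rpkM in the HBE libraries against 1.88 rpkM in A549. All 5 epithelial markers had at least 10 reads in each library. Of these, EPCAM was lower in A549 (7.29 rpkM against 57.1 and 258) and KRT18 higher (4302 against 743 and 1813). The aldo-keto reductase AKR1B10 was at 3469 rpkM in A549 and at 0.952 and 1.46 rpkM in HBE. The lung lineage factor NKX2-1 had at most 4 reads in any library, so this defining marker was nearly absent from both lines. SFTPB, also of the lung lineage, had 21 reads in HBE LIEA, 20 in A549 LIEA and 49 in HBE Smart-seq2. NAPSA, of the same lineage, had 7 reads in A549 LIEA and was not listed in the others. MTAP, which is known to be deleted in A549, had 43 reads in A549 LIEA, 2 in HBE LIEA and 24 in Smart-seq2, so it did not mark A549 here. The 7 markers of other cell types summed to between 22.8 and 43.2 rpkM. CD3E and DCN were not listed in any library and the leukocyte gene PTPRC had at most 3 reads. The fibroblast marker COL1A1 had 175 reads in HBE LIEA, 93 in A549 LIEA and 85 in HBE Smart-seq2. The endothelial marker PECAM1 had 20, 9 and 91 reads in the same order. VWF had 18 reads in HBE LIEA and was not listed in the others. Most of the sum was CD68, a lysosomal protein of macrophages that other cells also make, at 18.4 to 35.7 rpkM. In such bulk mRNA, fewer cells of a type and less mRNA per cell cannot be told apart.

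The 10 genes were expressed at a moderate level. The lowest and highest were 2.30 and 35.1 rpkM in HBE LIEA, 2.09 and 30.1 rpkM in A549 LIEA, and 0.775 and 27.5 rpkM in Smart-seq2. Their median was 14.4, 8.85 and 10.5 rpkM, against a median over all quantified genes of 9.71, 8.68 and 7.27 rpkM. All 10 genes had at least 10 reads in each library, with 25 reads of STK11 in Smart-seq2 as the lowest number and 1214 reads of PRKAA1 in Smart-seq2 as the highest. The order of the genes depended on the library. STK11 was the highest of the 10 in HBE LIEA, the second in A549 LIEA and the lowest in Smart-seq2. PRKAG1 was the highest in the other two libraries, in Smart-seq2 with an interval that overlapped that of PRKAA1. PRKAA2 was the lowest in both LIEA libraries and the second lowest in Smart-seq2, but its interval overlapped that of PRKAB2 in A549 LIEA and in Smart-seq2. In A549 LIEA, STK11, PRKAB1 and STRADA followed PRKAG1 at 21.0, 19.0 and 18.2 rpkM with overlapping intervals, so their order is not resolved. In HBE LIEA, the intervals of STRADA, PRKAA1 and PRKAB1 also overlapped.

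**Figure D1:**
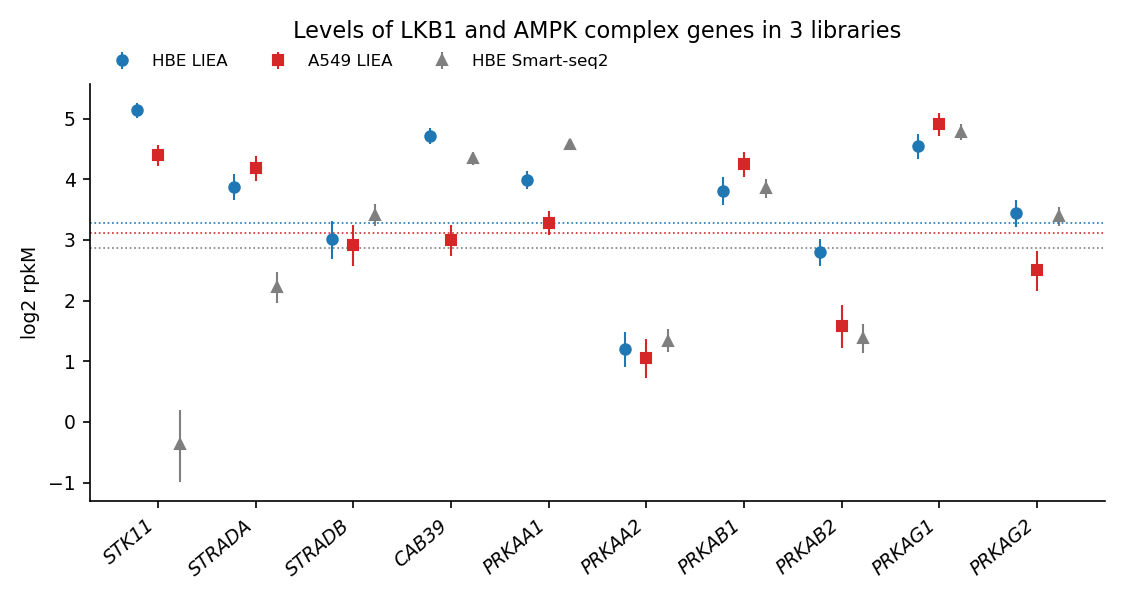
Levels of the 10 genes (log2 rpkM) in HBE LIEA (circles), A549 LIEA (squares) and HBE Smart-seq2 (triangles), with exact Poisson 95% counting intervals and with dotted lines at the median of all quantified genes of each library. STK11 spans 5.13 in HBE LIEA to -0.37 in HBE Smart-seq2, while PRKAG1 lies between 4.55 and 4.91.

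STK11, on chromosome 19 from 1177557 to 1228430 on the plus strand, encodes the kinase LKB1 itself. It had 530 reads and 35.1 rpkM in HBE LIEA, 286 reads and 21.0 rpkM in A549 LIEA, and 25 reads and 0.775 rpkM in HBE Smart-seq2. The HBE libraries thus lay on either side of A549. Between the cell lines by LIEA, STK11 was 1.67-fold lower in A549 (95% interval 1.44 to 1.94), a log2 ratio of -0.74. This did not reach the 2-fold used for a call, and 28.8% of the 13562 genes compared had a lower ratio. The STK11 mRNA was therefore detected in A549, the line with the truncating mutation; the values do not separate mutant from intact transcripts. Between the methods in HBE, STK11 was 45.3-fold higher by LIEA (30.4 to 70.7), a log2 ratio of 5.50. Of the 13478 genes compared between the methods, 74 had a higher ratio, which is 0.549%. In HBE LIEA, 81.9% of the quantified genes were below STK11, and in Smart-seq2 10.1%.

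The STK11 transcript nearest to the recovered length had a GC content of 67.0%. Over all genes with at least 10 reads in both HBE libraries, the median log2 ratio (LIEA over Smart-seq2) was -0.70 for the 604 genes from 35 to 37.5% GC and 1.19 for the 274 genes from 65 to 67.5% GC. Set against the median of its own GC range, the log2 ratio of STK11 was still 4.32, and 1.09% of the genes of that range had a higher ratio. By LIEA, the same GC range had a median log2 ratio of -0.34 between A549 and HBE, and relative to it STK11 was at -0.40. An antisense gene, CBARP, overlaps 145 bases of STK11 and was not listed under that symbol. Older symbols of it were not searched.

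**Figure D2:**
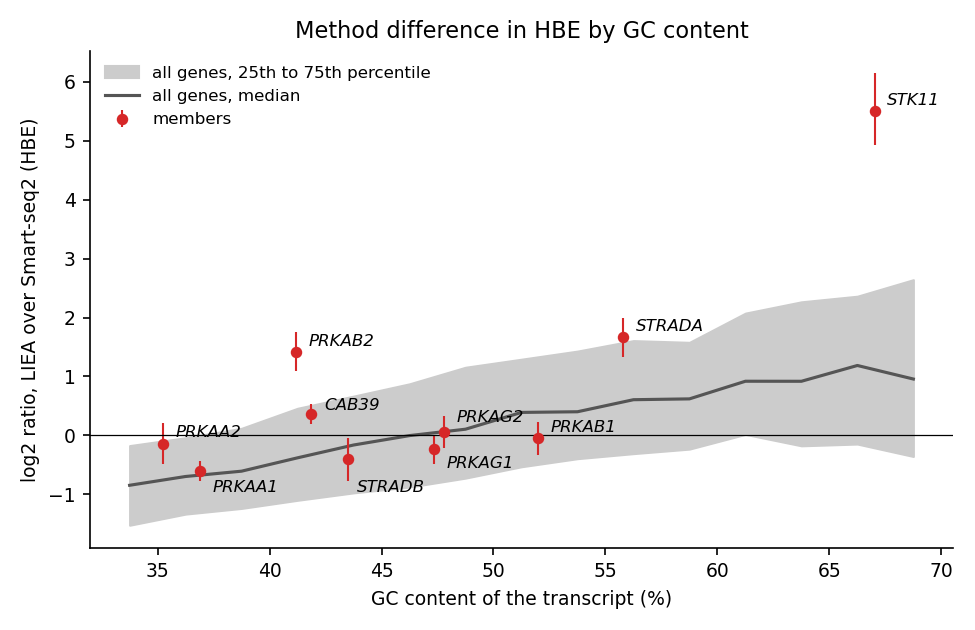
Log2 ratio of rpkM in HBE (LIEA over Smart-seq2) against the GC content (%) of the transcript. The line and band give the median and the 25th to 75th percentile over all genes with at least 10 reads in both libraries, in GC ranges of at least 50 genes, and the points are the 10 members with counting intervals. STK11 lies at 5.50, far above the band, and PRKAB2 at 1.42 lies above the band at a GC content of 41.2%.

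STRADA and STRADB encode the pseudokinases that switch LKB1 on and hold it in the cytoplasm. STRADA (chromosome 17, 61759696 to 61819346, minus strand) had 188 reads and 14.7 rpkM in HBE LIEA, 209 reads and 18.2 rpkM in A549 LIEA, and 127 reads and 4.65 rpkM in Smart-seq2. STRADB (chromosome 2, 202252581 to 202345569, plus strand) had 86 reads and 8.04 rpkM, 73 reads and 7.57 rpkM, and 243 reads and 10.6 rpkM in the same order. The LIEA libraries thus had more STRADA than STRADB, and the Smart-seq2 library the reverse. STRADA made up 64.7% of the STRAD rpkM in HBE LIEA (95% interval 58.5 to 70.5), 70.6% in A549 LIEA (64.7 to 76.0) and 30.4% in HBE Smart-seq2 (25.9 to 35.3). Between the cell lines by LIEA, the log2 ratio was 0.30 for STRADA (0.01 to 0.59) and -0.09 for STRADB (-0.56 to 0.38). Between the methods, STRADA was 3.16-fold higher by LIEA (2.51 to 3.995) and STRADB 1.32-fold lower (1.03 to 1.71). Against the median of its GC range, the log2 ratio of STRADA moved from 1.66 to 1.06. A pair of other gene models, neither of them listed under the names given here, aligned with the STRADB transcript. ENSG00000235105 covered 56.6% of it at up to 98.7% identity and STRADBP1 55.4% at up to 96.1%. The STRADB level is uncertain where reads fit more than 1 of these copies. Another gene model on the same strand covers 67.4% of the STRADA transcript. It was searched for by its Ensembl identifier only and was not listed under it.

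CAB39 encodes MO25-alpha, the scaffold that fixes LKB1 and STRAD in the active form. It lies on chromosome 2 from 231577557 to 231685790 on the plus strand. CAB39 had 477 reads and 26.2 rpkM in HBE LIEA, 131 reads and 7.98 rpkM in A549 LIEA, and 791 reads and 20.3 rpkM in Smart-seq2. A549 was low and both HBE libraries were high. By LIEA, CAB39 was 3.28-fold lower in A549 (2.70 to 4.02), a log2 ratio of -1.72, and 9.76% of the genes compared had a lower ratio. Between the methods in HBE it differed 1.29-fold (1.148 to 1.45). CAB39 had the largest ratio in size of the 10 between the cell lines, with an interval (log2 -2.01 to -1.43) that overlapped that of PRKAB2 (-1.64 to -0.80). Its paralogue CAB39L, which encodes MO25-beta and is not among the 10, had 33 reads in HBE LIEA, 6 in A549 LIEA and 77 in Smart-seq2. CAB39L was 4.96-fold lower in A549 by LIEA (2.05 to 14.5), so both MO25 genes were low there. The summed MO25 rpkM was 28.1 in HBE LIEA, 22.4 in HBE Smart-seq2 and 8.37 in A549. CAB39 made up 90.6 to 95.3% of it in the 3 libraries.

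PRKAA1 and PRKAA2 encode the catalytic subunits of AMPK, which carry the threonine that LKB1 phosphorylates. PRKAA1 (chromosome 5, 40759491 to 40798476, minus strand) had 375 reads and 15.9 rpkM in HBE LIEA, 207 reads and 9.71 rpkM in A549 LIEA, and 1214 reads and 24.04 rpkM in Smart-seq2. PRKAA2 (chromosome 1, 57110987 to 57181008, plus strand) had 99 reads and 2.30 rpkM, 81 reads and 2.09 rpkM, and 233 reads and 2.53 rpkM. PRKAA1 was the main alpha gene in each library, with 87.4% of the alpha rpkM in HBE LIEA (84.7 to 89.7), 82.3% in A549 LIEA (78.2 to 85.9) and 90.5% in Smart-seq2 (89.2 to 91.6). By LIEA, PRKAA1 was 1.63-fold lower in A549 (1.38 to 1.95) and the ratio of PRKAA2 did not differ from 1 beyond counting error (log2 ratio -0.14, interval -0.58 to 0.30). Between the methods, PRKAA1 was 1.51-fold lower by LIEA (1.348 to 1.71), but against the median of its GC range the log2 ratio turned from -0.60 to 0.10. The summed alpha rpkM was 18.2 in HBE LIEA, 26.6 in Smart-seq2 and 11.8 in A549.

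PRKAB1 and PRKAB2 encode the scaffolding beta subunits. PRKAB1 (chromosome 12, 120105669 to 120119429, plus strand) had 155 reads and 14.02 rpkM in HBE LIEA, 190 reads and 19.0 rpkM in A549 LIEA, and 342 reads and 14.5 rpkM in Smart-seq2. PRKAB2 (chromosome 1, 146626685 to 146644129, minus strand) had 175 reads and 6.96 rpkM, 68 reads and 2.997 rpkM, and 140 reads and 2.60 rpkM. PRKAB1 was highest in A549, whereas PRKAB2 was high in HBE LIEA alone. By LIEA, PRKAB2 was 2.32-fold lower in A549 (1.74 to 3.12) and PRKAB1 1.36-fold higher (1.09 to 1.69). In HBE, PRKAB2 was 2.67-fold higher by LIEA than by Smart-seq2 (2.13 to 3.36), with an interval that overlapped that of the fold between the cell lines, and its level in HBE Smart-seq2 overlapped that in A549 within counting error. On the log2(rpkM + 1) scale the difference of PRKAB2 between the lines was short of 2-fold. Between the methods its log2 ratio was 1.42. Against genes of like transcript length this ratio moved to 0.97, and against the median of its GC range to 1.80. PRKAB1 held 66.8% of the beta rpkM in HBE LIEA (61.7 to 71.6), 86.4% in A549 LIEA (82.7 to 89.5) and 84.7% in HBE Smart-seq2 (82.0 to 87.2). The interval of A549 overlapped that of HBE Smart-seq2, so the beta share separated HBE LIEA from the other two libraries and not the cell lines.

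PRKAG1 and PRKAG2 encode the nucleotide-binding gamma subunits. PRKAG1 (chromosome 12, 49396057 to 49412590, minus strand) had 198 reads and 23.4 rpkM in HBE LIEA, 230 reads and 30.1 rpkM in A549 LIEA, and 498 reads and 27.5 rpkM in Smart-seq2. PRKAG2 (chromosome 7, 151253210 to 151574299, minus strand) had 171 reads and 10.9 rpkM, 80 reads and 5.65 rpkM, and 351 reads and 10.5 rpkM. The HBE libraries were alike for PRKAG2, with a log2 ratio between the methods of 0.06 (-0.21 to 0.33), and A549 was low. By LIEA, PRKAG2 was 1.93-fold lower in A549 (1.47 to 2.55), just short of 2-fold on the rpkM scale but past it in TPM, and PRKAG1 1.29-fold higher (1.06 to 1.57). PRKAG1 held 68.2% of the gamma rpkM in HBE LIEA (63.5 to 72.6), 72.4% in HBE Smart-seq2 (69.6 to 75.1) and 84.2% in A549 LIEA (80.4 to 87.4). Here the intervals of both HBE libraries overlapped each other and not that of A549. PRKAG3, which is known from skeletal muscle, was not listed in any library. The antisense gene PRKAG2-AS1 had 2 reads in A549 LIEA and was not listed in the others. Another gene model on the same strand covers 97.5% of the PRKAG1 transcript. It was searched for by its Ensembl identifier only and was not listed under it.

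**Figure D3:**
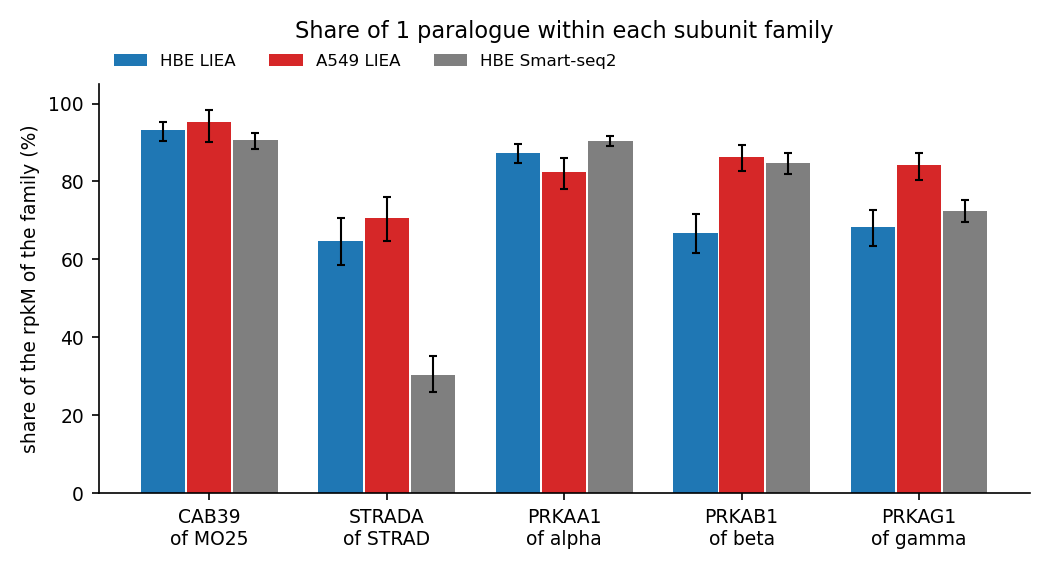
Share (%) of CAB39, STRADA, PRKAA1, PRKAB1 and PRKAG1 in the summed rpkM of its subunit family in the 3 libraries, with bars from 0 and 95% counting intervals. The STRADA share is 64.7% and 70.6% by LIEA and 30.4% by Smart-seq2, and the PRKAG1 share is 84.2% in A549 against 68.2 and 72.4% in HBE.

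Counted over the 10 genes, 2 were at least 2-fold lower in A549 than in HBE by LIEA (CAB39 and PRKAB2) and 0 were at least 2-fold higher. Of all genes compared, 41.1% passed 2-fold in either direction. Over all 13562 genes compared, 21.0% were at least 2-fold lower and 20.1% at least 2-fold higher, so the count of lower members was near the background. The log2 ratio was below 0 for 7 of the 10, with a median of -0.42 against -0.14 over all genes compared. The interval lay below 0 for 5 genes (STK11, CAB39, PRKAA1, PRKAB2 and PRKAG2) and above 0 for 3 (STRADA, PRKAB1 and PRKAG1). For genes with at least 10 reads in both libraries the median log2 ratio was -0.16, and centring on it turned the small negative ratios of STRADB and PRKAA2 positive (0.07 and 0.02). STK11 was at -0.58 and CAB39 at -1.55 after the same centring.

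Between the methods in HBE, 3 of the 10 genes were at least 2-fold higher by LIEA (STK11, STRADA and PRKAB2) and 0 at least 2-fold lower, against 28.5% and 21.6% of all 13478 genes compared (50.1% in either direction). The median log2 ratio of the members was 0.01, against 0.04 over all genes compared. The interval held 0 for 4 genes, with log2 ratios of -0.14 (PRKAA2), -0.05 (PRKAB1), -0.23 (PRKAG1) and 0.06 (PRKAG2). In TPM, which shifted all log2 ratios between the methods by 0.20 and those between the lines by -0.16, PRKAA2 and PRKAB1 were at 0.06 and 0.15 between the methods. For STK11, STRADA, STRADB and PRKAB2, 4 of the 10, the difference between the methods in HBE was larger in size than the difference between the cell lines by LIEA. For STK11 and PRKAB2, A549 lay between the HBE libraries. For STK11 the direction of the difference between the lines thus depended on which HBE library was used. For PRKAB2 the levels in A549 and HBE Smart-seq2 overlapped within counting error, so no reversed direction was resolved. A549 lay below both HBE libraries for 5 of the 10 genes (STRADB, CAB39, PRKAA1, PRKAA2 and PRKAG2), against 37.1% of 13348 genes, and above both for 3 (STRADA, PRKAB1 and PRKAG1), against 35.1%. Of the 5, STRADB and PRKAA2 differed from HBE LIEA within counting error and turned positive with median centring, and without them 3 remain. It was at least 2-fold below both for CAB39 alone, where the background was 12.7%. For 0 members it was at least 2-fold above both, with a background of 16.5%. The comparisons between the lines and between the methods share the HBE LIEA library.

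**Figure D4:**
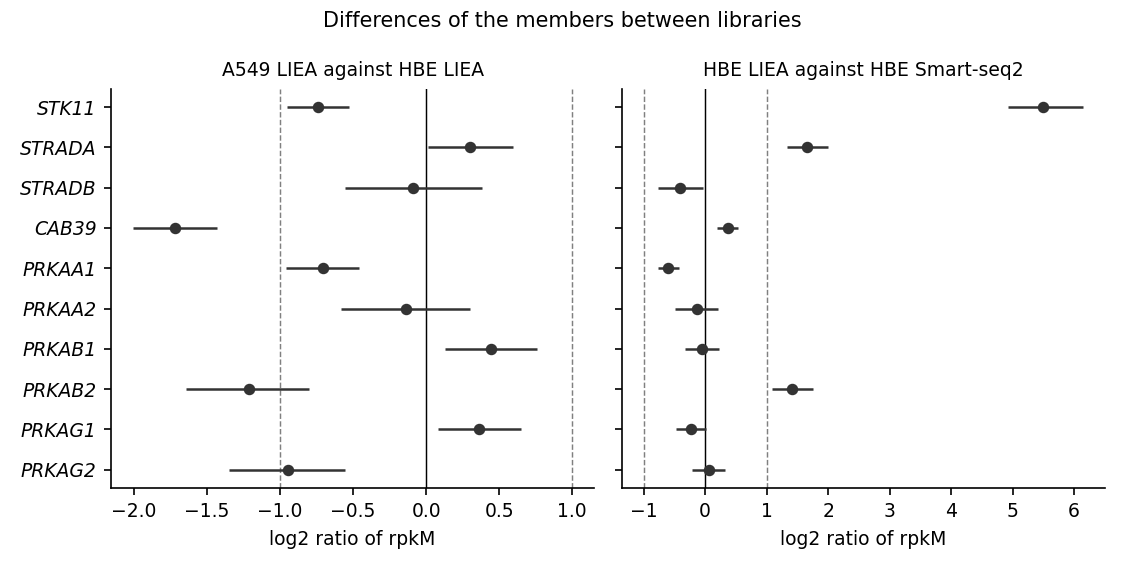
Log2 ratios of rpkM of the 10 members between the cell lines by LIEA (left) and between the methods in HBE (right; the scales differ), with exact 95% counting intervals and dashed lines at 2-fold. CAB39 at -1.72 and PRKAB2 at -1.21 pass 2-fold on the left, and STK11 at 5.50, STRADA at 1.66 and PRKAB2 at 1.42 on the right.

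The other genes of the pathway were taken from 6 lists and described by counts at 2-fold between A549 and HBE by LIEA, against the background of 20.1% higher and 21.0% lower. Among the other subunits and the kinases that can activate AMPK, 4 of 5 genes could be compared and CAB39L alone passed 2-fold. CAMKK2, the calcium-dependent kinase that phosphorylates AMPK without LKB1, was at 12.03 rpkM in A549 and 15.2 rpkM in HBE by LIEA. PRKAG3 could not be compared.

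Of the 12 other kinases that LKB1 phosphorylates, 3 were at least 2-fold higher in A549 and 3 lower. The median log2 ratio of the list was -0.36. The microtubule-regulating kinase MARK1 had 2 reads in A549 against 73 in HBE, a log2 ratio, before a floor of 3 reads was set, of -5.04 (-8.11 to -3.14). BRSK2, which is known from neurons and endocrine cells, had 35 reads in A549 against 1 in HBE (log2 ratio 5.28 on the same terms, 2.71 to 10.6). Its paralogue BRSK1 was at 3.20 rpkM in A549 and 11.3 rpkM in HBE LIEA, a log2 ratio of -1.82 (-2.36 to -1.32), but had 1 read in HBE Smart-seq2. The salt-inducible kinase SIK2 was at 4.24 rpkM in A549, 11.3 rpkM in HBE LIEA and 3.20 rpkM in HBE Smart-seq2. For BRSK1 and SIK2, A549 thus lay between the HBE libraries, so neither gene was lower in A549 than in both. NUAK1 was at 11.5, 3.76 and 0.536 rpkM, with A549 above both. NUAK2 was at 22.2 rpkM in A549, 9.51 rpkM in HBE LIEA and 24.04 rpkM in HBE Smart-seq2, so A549 was not above both. These kinases also differed between the methods. In HBE, 8 of the 11 that could be compared were at least 2-fold higher by LIEA than by Smart-seq2, against 28.5% of all genes. NUAK2 was the 1 at least 2-fold lower, against 21.6% of all genes. The median log2 ratio was 2.08.

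Of 18 AMPK substrates, 3 were at least 2-fold higher and 4 lower in A549, with a median log2 ratio of -0.27. A549 was at least 2-fold above both HBE libraries for 3 of them and below both for 1, PFKFB2, against 16.5% and 12.7% of all genes. These genes differed between the methods too: in HBE, 9 of the 18 were at least 2-fold higher by LIEA than by Smart-seq2 and 0 lower. The background was 28.5% and 21.6%, and their median log2 ratio was 1.05. PFKFB3, which makes the activator of phosphofructokinase, was at 151 rpkM in A549, 28.0 rpkM in HBE LIEA and 19.9 rpkM in HBE Smart-seq2. The heart-type isoenzyme PFKFB2 was low in A549, with 3.61, 12.4 and 8.75 rpkM in the same order. ULK1, the kinase that starts autophagy, was at 46.9, 16.7 and 0.7002 rpkM, and so was low in Smart-seq2 as STK11 was. TBC1D4, a regulator of glucose transporter traffic, was at 3.74, 13.6 and 5.75 rpkM, and the CREB coactivator CRTC1 at 3.89, 1.43 and 0.363 rpkM. ACACA, the acetyl-CoA carboxylase of fatty acid synthesis, did not pass 2-fold between the lines (23.2 and 30.2 rpkM).

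Of the 9 genes of mTORC1 and its TSC brake, 0 passed 2-fold in either direction between the lines by LIEA. The log2 ratios lay between -0.26 (RHEB) and 0.96 (TBC1D7). In HBE, 3 of the 9 were at least 2-fold higher by LIEA than by Smart-seq2 and 1, RHEB, was lower. The background was 28.5% and 21.6%. RHEB was at 24.5 rpkM in A549, 29.4 rpkM in HBE LIEA and 146 rpkM in HBE Smart-seq2. Of 7 folliculin and energy-stress partners of AMPK, the folliculin gene FLCN was 2.26-fold higher in A549 (1.77 to 2.91) and the sestrin SESN1 4.67-fold lower (2.97 to 7.64).

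The last list held 12 genes known to be higher with loss of LKB1 or with activity of the CREB coactivators CRTC. In A549, 9 of the 12 were at least 2-fold higher than in HBE by LIEA and 0 were lower, with a median log2 ratio of 2.41. In TPM the count was 8, without NR4A3, which had 30 reads in A549 and 16 in HBE (log2 ratio 1.06 on the rpkM scale, 0.13 to 2.03). The list was drawn from general knowledge of LKB1-deficient cells, in which lung cancer lines figure, so it is not independent of A549. INSL4, a placental insulin-like peptide, was at 73.2 rpkM in A549, 1.41 rpkM in HBE LIEA and 1.16 rpkM in HBE Smart-seq2. CPS1, the mitochondrial carbamoyl phosphate synthase, was at 28.4, 1.58 and 1.199 rpkM. The nuclear receptor NR4A2 was at 25.7, 3.20 and 4.60 rpkM, and NEDD9, a scaffold of cell migration, at 52.9, 9.12 and 10.7 rpkM. For these genes both HBE libraries were low and A549 was high. PTGS2, the inducible cyclooxygenase, was at 59.8 rpkM in A549 and 6.38 rpkM in HBE LIEA, but at 50.03 rpkM in HBE Smart-seq2. A549 was at least 2-fold above both HBE libraries for 8 of the 12 genes, against 16.5% of all genes. The genes that did not pass 2-fold were LINC00473 (16.8 against 12.5 rpkM by LIEA), ID1 (558 against 435 rpkM) and SIK1 (207 against 259 rpkM). Whether the loss of LKB1 plays a part in these values was not tested, and it cannot be told apart from other differences between the cell lines.

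**Figure D5:**
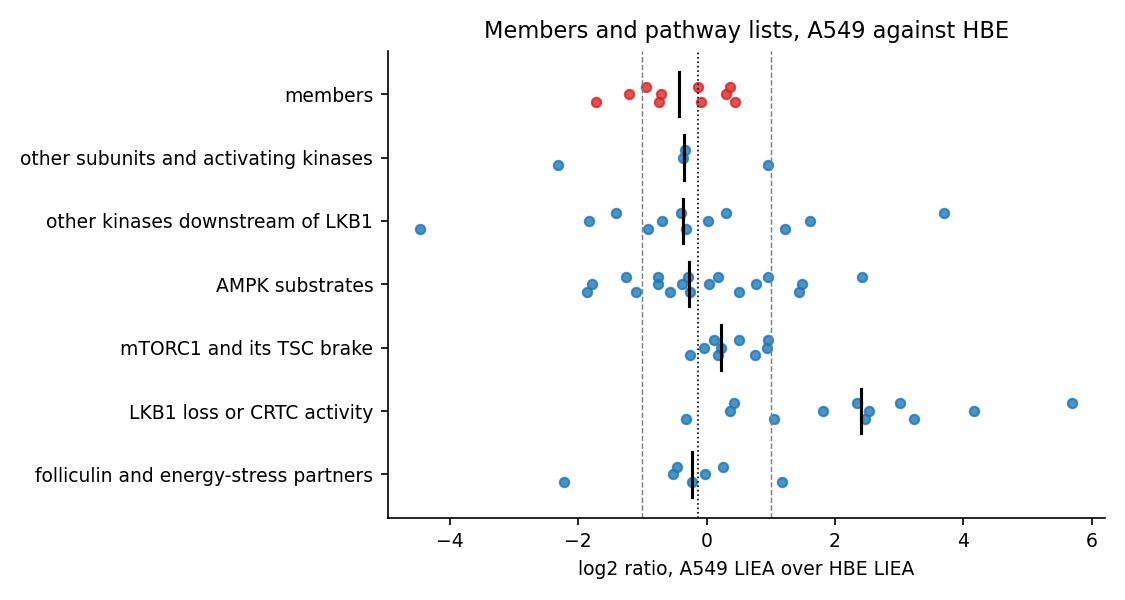
Log2 ratios of rpkM between A549 and HBE by LIEA for the 10 members and the genes of the 6 lists, with black bars at the median of each list, a dotted line at the median of all genes compared and dashed lines at 2-fold. The list on LKB1 loss or CRTC activity has its median at 2.41, the members at -0.42.

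The genes whose log2 rpkM in the 3 libraries lay nearest to those of STK11, among 10869 genes with at least 10 reads in each, were SMO, ABHD17A and LSM14B, at Euclidean distances of 0.44, 0.66 and 0.70 log2 units. They were chosen on these same values, so their low level in Smart-seq2 follows from the choice and is no separate result. Their log2 rpkM was -0.34, -0.62 and 0.13 there against 5.01, 5.27 and 4.94 in HBE LIEA. Their transcripts had a GC content of 62.2, 68.6 and 55.4%. With 3 libraries, such nearness describes these values only.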

How the data were processed

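The authors kept Ion Torrent reads longer than 42 nt with a Phred score above 10, mapped reads with FANSe2 to RefSeq-RNA, merged splice variants and deposited log2 rpkM per gene, with no pseudocount and with unlisted genes taken as without reads. Whether mapping used the strand is not given in the sources used here. As rpkM is reads divided by transcript length and total, whole reads were worked out: the ratio of totals from the most frequent ratio of values, and the total as the largest whole number at which over 70% of 300 genes gave whole lengths (90.3% did). All 10 members gave whole reads with a common factor of 1; the factor was above 1 for 568 of 18856 genes, chosen from 1 to 12 by GENCODE 44 transcript lengths on GRCh37 (94.0% of symbols matched, through RefSeq synonyms). The recovered reads summed to 96.3, 96.6 and 96.7% of the totals. The recovery was tested on simulated data. The simulated lengths came from the same annotated lengths used to choose the factor. Recovered lengths of the members differed from the annotated ones (PRKAG1 1839 against 1683 nt), and the simulation does not cover that difference. Repeated gene names (4 rows a library) were dropped.

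Genes with at least 10 reads in either library were compared, a library under 3 reads being set to 3 reads. This floor is 0.651 (HBE LIEA), 0.722 (A549 LIEA) and 0.305 (HBE Smart-seq2) RPM. Intervals are exact Poisson for levels and exact binomial (Clopper-Pearson) for ratios and shares, at 95%; PCR reads are not independent molecules, so they cover counting error only. GC content is that of the annotated transcript nearest in length. Shared sequence was searched with blastn 2.17.0 (at least 42 nt at 93% identity or more). Overlapping and aligned genes were looked up in the lists by their GENCODE name only, without synonyms. Named are all 10 members and the 3 genes nearest to STK11. Per list, up to the 5 largest differences past 2-fold between the cell lines are named, and genes needed for a role. LINC00473, ID1, SIK1, NUAK2, RHEB and TBC1D7 were named after their values were seen. SIK1, RPTOR and TSC2 are each in a pair of lists. The members and lists were chosen with earlier results of these data known. Scripts ran under Python 3.11.15 with scipy 1.17.1 for intervals, pandas 2.3.3, numpy 2.4.6 and matplotlib 3.10.9. The study's bulk mRNA-seq was not used here.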

Additional observations from a re-analysis of the deposited data

How the results depend on the processing

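No paired analysis was possible because each group has 1 library, and leave-one-out values could not be made. With 1.5-fold as the limit, 5 members were lower in A549 by LIEA (STK11, PRKAA1 and PRKAG2 besides CAB39 and PRKAB2) and 1, PRKAA1, was lower by LIEA than by Smart-seq2. On the log2(rpkM + 1) scale, 1 member, CAB39, was at least 2-fold lower in A549. With ratios centred on genes of like transcript length, 2 members, PRKAA1 and PRKAA2, were at least 2-fold lower by LIEA than by Smart-seq2. The other counts of members past the fold stayed within 1.5 times of the reported number under these settings and under a minimum of 20 reads, no minimum, 10 reads in both libraries, median centring, TPM, the smallest whole reads and, between the methods, GC centring. Of 80 ratios of single members recomputed under other scalings, 66 stayed within their counting interval and 9 changed sign; the reported ratios of those 9 were all within 0.60 of 0 (log2) and none had passed 2-fold. Without division by length, the PRKAA1 share of alpha reads was 79.1, 71.9 and 83.9% (HBE LIEA, A549 LIEA, HBE Smart-seq2), the PRKAB1 share of beta 47.0, 73.6 and 71.0%, and the PRKAG1 share of gamma 53.7, 74.2 and 58.7%. For the pathway lists, median centring and TPM were added after seeing the data. Between the lines, counts moved by over 1.5 times with centring in 2 lists, where 1 activating kinase (CAMKK1) and 2 genes of the list of mTORC1 and its TSC brake (DEPTOR and the TSC subunit TBC1D7) were then at least 2-fold higher in A549. With the same centring, 4 AMPK substrates were higher and 3 lower. Depth limits STK11 in Smart-seq2 most, at 25 reads.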
